A study of Homo sapiens with 15 samples.

Results

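Mifepristone, a steroid antagonist of the glucocorticoid and progesterone receptors, was given together with dexamethasone, a synthetic glucocorticoid, and the cells were compared with cells given dexamethasone alone. The comparison holds 6 of the 15 arrays of the series, chosen by their titles. They are 3 arrays of A549 cells under mifepristone for 48 hours and dexamethasone for 6 hours, and 3 arrays of A549 cells under dexamethasone for 6 hours. A549 is an established human lung adenocarcinoma epithelial line. The remaining control group of 3 arrays from non-treated A549 cells served to place the levels, and the other 6 arrays, from cells given DNA-binding polyamides with dexamethasone, entered only the scaling and the shared estimate of the spread. All cells grew in F12K medium with charcoal-treated serum, which is low in steroids, and total RNA was labelled with biotin for Affymetrix arrays. The labels give no dose of either drug. No group with mifepristone alone was analysed here, so an action of mifepristone of its own and its action on the hormone response cannot be told apart. The labels do not say whether the 3 arrays of a group came from separate cultures, so p-values here measure how far these arrays spread, and that spread may be purely technical.

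The glucocorticoid receptor, encoded by NR3C1, waits in the cytoplasm in a complex with heat shock proteins and immunophilins. Binding of a hormone moves it into the nucleus, where it raises transcription of genes such as FKBP5, TSC22D3 and DUSP1 through glucocorticoid response elements, and lowers transcription of many inflammatory and growth-related genes in part by acting on AP-1 and NF-kappaB. Mifepristone occupies the same pocket, and the receptor bound to it can still reach DNA, where it can act as a weak agonist at some genes.

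The arrays with mifepristone were brighter than those with dexamethasone alone and those without treatment, and this sets what a fold change means. The median deposited signal of an array was 22.4 ± 2.46 (SD, n = 3) with mifepristone, 16.1 ± 1.79 with dexamethasone alone and 15.6 ± 0.769 without treatment, each group over 3 arrays. The lowest mifepristone array, at 19.7, lay above the highest dexamethasone array, at 18.1. Among the arrays with polyamides, 1 was as bright, with a median of 22.4. The 2% trimmed mean was 1.37-fold higher with mifepristone than with dexamethasone alone. Control RNAs added to the sample before labelling (poly-A controls) were 1.43-fold brighter, with no overlap of the arrays (69.0 to 77.3 against 47.1 to 55.1). Among the arrays with polyamides these controls reached 74.0 and 77.1, within the mifepristone range. Controls added at hybridization were not brighter, at 0.952-fold with overlapping arrays. The ratio of 3′ to 5′ probe sets, a sign of RNA integrity, was 0.966 ± 0.0544 (SD, n = 3) against 0.957 ± 0.0342 for GAPDH and 1.37 in both groups for ACTB. The 18S ribosomal RNA signal set mifepristone array 3 apart, at 457 against 1860 and 1710 on the other mifepristone arrays and 1030 to 1500 with dexamethasone. Without that array 1177 probe sets were called between the groups, against 1408 with it. The signals were therefore brought to 1 common distribution by quantile normalization, and levels below are these normalised signals unless stated. On the signals as deposited the median gene was 0.38 higher on the log2 scale with mifepristone, and 0.44 higher when arrays were set equal at the hybridization controls. After quantile normalization it stood at 0.02, and at -0.03 when arrays were set equal at the poly-A controls.

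**Figure D1:**
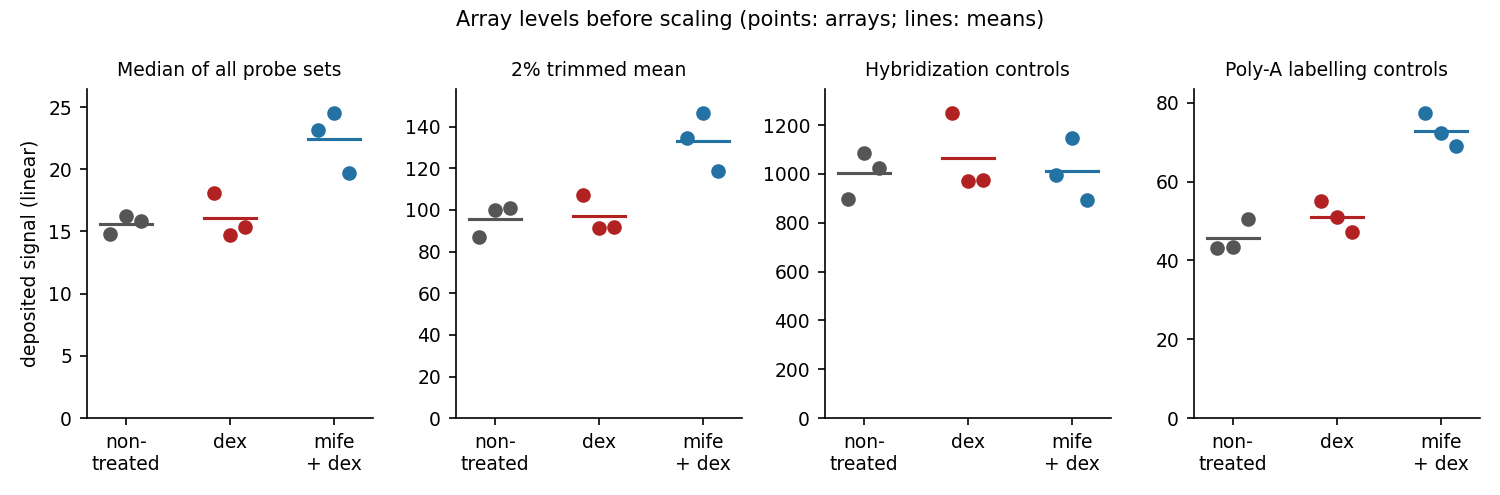
Deposited signal (linear scale, no unit) of each array before scaling, for the median of all probe sets, the 2% trimmed mean, the hybridization controls and the poly-A labelling controls, in non-treated cells, with dexamethasone (dex) and with mifepristone plus dexamethasone (mife + dex). Points are arrays and lines are group means. The mifepristone arrays lie above the dexamethasone arrays in the median, the trimmed mean and the poly-A controls, and overlap them in the hybridization controls.

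The test found 412 of 16367 genes higher with mifepristone than with dexamethasone alone and 451 lower, each gene represented by 1 probe set. That is 5.27% of the genes tested, 2.52% higher and 2.76% lower, at an adjusted p under 0.05. Over 39778 probe sets, 635 were higher (1.60%) and 773 lower (1.94%), together 3.54%, and among these 52 were higher and 179 lower by at least 2-fold. For dexamethasone against non-treated cells the called shares were 4.86% of probe sets and 6.79% of genes. The counts of higher genes depend on the scaling. Of the same 39778 probe sets, 7906 were called higher and 232 lower on the signals as deposited. With arrays set equal at the poly-A controls 237 were higher and 534 lower. Counts of list members on those scalings are not to be set beside 2.52% and 2.76%. The numbers for those scalings are over probe sets, while list members are genes with 1 probe set each. Shares over genes were not counted on those scalings. After quantile normalization the share over genes was the higher one, 5.27% against 3.54% of probe sets. The comparisons of mifepristone with dexamethasone and of dexamethasone with non-treated cells use the same 3 dexamethasone arrays. Opposite signs at a gene are therefore not independent, and the values of each are given side by side. Because RNA was taken from whole cultures, fewer cells expressing a gene and less RNA per cell cannot be told apart.

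Most of the tested genes known to be induced by glucocorticoids were lower with mifepristone. Of 54 such genes on a list, 50 were tested, and 35 were lower, 1 was higher and 14 did not pass, against 2.76% lower and 2.52% higher of all genes tested. Their median difference was -0.88 on the log2 scale, against 0.02 over all genes. In dexamethasone alone against non-treated cells, 39 of the 50 were higher and 2 lower, where 3.20% and 3.60% of all genes were. Against non-treated cells, 13 of the 50 were still higher with mifepristone and none was lower, where 0.171% and 0.0733% of all genes were. The scaling moved both counts. On the signals as deposited 26 members were lower and 3 higher than with dexamethasone, and 31 stood above the non-treated level. With arrays set equal at the poly-A controls 33 were lower, and 5 stood above the non-treated level.

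FKBP5, an immunophilin of the receptor complex and a classic target, showed a partial drop. Its signals were 2660, 2710 and 2830 with dexamethasone, 594, 560 and 598 with mifepristone added, and 213, 229 and 251 in non-treated cells. The groups did not overlap, and the mifepristone arrays lay between the other groups. FKBP5 was 4.59-fold lower than with dexamethasone alone (log2 difference -2.20, SE 0.07, adjusted p = 1e-13). It was 2.43-fold above the non-treated level (log2 difference 1.28, SE 0.07, adjusted p = 5.1e-09), and that call held in each of 22 alternative settings. The share of the dexamethasone effect that was left can be put as a percent, 0 at the non-treated mean and 100 at the dexamethasone mean on the log2 scale. For FKBP5 it was 36.8%, and from 35.1% to 37.8% over the 3 mifepristone arrays. This share is a description with no test, and it moves with the scaling, from 32.4% to 50.5% over the settings.

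Further genes stood clearly between the levels of the other groups. TFCP2L1, a transcription factor of the grainyhead family, had signals of 621, 567 and 607 with dexamethasone, 99.5, 95.2 and 81.7 with mifepristone, and 36.9, 42.2 and 41.7 without treatment. None of its groups overlapped, and 27.2% of the effect was left. It was lower than with dexamethasone (-2.51, SE 0.11, adjusted p = 1.1e-11) and higher than in non-treated cells (0.94, adjusted p = 0.00016). ANGPTL4, a secreted inhibitor of lipoprotein lipase, had signals of 361, 337 and 417 with dexamethasone and 55.9, 86.9 and 86.6 with mifepristone. Its non-treated signals were 20.7, 31.6 and 22.1, so no group overlapped. The share left ran from 25.4% to 41.3% over the arrays of ANGPTL4 (adjusted p = 2.3e-08 against dexamethasone, 0.00081 against non-treated cells). CDC42EP3, an effector of the GTPase CDC42, kept a larger share, 46.3%, with signals of 781, 728 and 657 against 1420, 1570 and 1480 with dexamethasone and 394, 392 and 358 without treatment. The calls of TFCP2L1, ANGPTL4 and CDC42EP3 against non-treated cells held in each of 22 alternative settings.

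CIDEC, a protein of the lipid droplet surface, is shown with the sequence before its start because the receptor's motif stands in it. The motif searched was AGAACA, then any 3 bases, then TGT, on both strands, part of the palindrome of a glucocorticoid response element. It was found in 100 of 35116 windows of 250 bases before a RefSeq transcript start (0.285%). By gene, counting any window, it stood in 27 of 12936 tested genes (0.209%) and in 2 of the 39 induced genes that had such a window (5.13%). Other listed genes that held it were SPRY2 (-0.52, adjusted p = 0.0083) and FAM107A, which was not called (-0.04, adjusted p = 0.98). The match of CIDEC is in capitals in this window of GRCh38.p14, chr3:9878813-9879062, minus strand, which is the second of the windows listed for the gene. It begins 246 bases before the start, and letters that match the AP-1 motif used for TNFSF15 stand elsewhere in the window without overlapping it.
CIDEC: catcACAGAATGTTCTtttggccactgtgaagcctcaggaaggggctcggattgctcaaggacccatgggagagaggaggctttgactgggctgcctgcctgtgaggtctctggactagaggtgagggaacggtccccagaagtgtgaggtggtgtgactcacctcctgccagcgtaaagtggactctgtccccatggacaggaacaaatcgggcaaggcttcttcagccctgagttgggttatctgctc
A match is a description of letters and not a site. CIDEC signals were 450, 544 and 520 with dexamethasone, 111, 138 and 99.3 with mifepristone, and 46.2, 46.6 and 49.5 without treatment. The 3 groups did not overlap and 34.5% of the effect was left. CIDEC was 1.99 lower on the log2 scale than with dexamethasone (SE 0.13, adjusted p = 2e-09) and 1.05 higher than in non-treated cells (adjusted p = 0.00017), the latter in each of 22 alternative settings.

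TSC22D3, which encodes the anti-inflammatory leucine zipper protein GILZ, and DUSP1, which dephosphorylates and so inactivates MAP kinases, also fell. TSC22D3 signals were 1100, 1050 and 1150 with dexamethasone, 196, 218 and 154 with mifepristone and 133, 119 and 118 without treatment. The mifepristone arrays lay near the non-treated ones without overlapping them, and 18.3% of the effect was left. TSC22D3 fell by 2.46 on the log2 scale (SE 0.10, adjusted p = 1.3e-12). Its excess over non-treated cells (0.55, adjusted p = 0.011) was lost in 8 of 22 settings, among them without non-treated replicate 2 (0.0789) or 3 (0.079) and without mifepristone replicate 1 (0.0908) or 2 (0.0941). Another probe set of TSC22D3 was not called (-0.32, adjusted p = 0.58). DUSP1 signals were 5880, 5710 and 5800 with dexamethasone, 3180, 3380 and 3170 with mifepristone and 2160, 2160 and 2250 without treatment, again with no overlap. DUSP1 fell by 0.83 (SE 0.05, adjusted p = 5.1e-10), and 40.2% of the effect was left, or 19.3% with arrays set equal at the poly-A controls, where it did not pass against non-treated cells (adjusted p = 0.366), nor with median centring (0.0885). Over the settings the share left of DUSP1 ran from 19.3% to 65.7%.

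STOM, a membrane scaffold protein, had 3240, 3180 and 3270 with dexamethasone, 1170, 1130 and 1140 with mifepristone and 855, 878 and 872 without treatment, with no overlap and an adjusted p of 1e-13 for the drop. ERRFI1, a feedback inhibitor of the EGF receptor, went from 2330, 2400 and 2480 to 1120, 1120 and 1070 (adjusted p = 4.9e-11), and the transcription factor CEBPD from 1270, 1170 and 1260 to 480, 490 and 522 (adjusted p = 8.8e-11).

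Other induced genes stood at or near the non-treated level with mifepristone. CDKN1C, the cell cycle inhibitor p57, had signals of 362, 397 and 436 with dexamethasone, 21.0, 26.0 and 23.4 with mifepristone, and 15.9, 14.6 and 23.0 without treatment. The dexamethasone arrays stood alone, and the other groups overlapped. On the scale with 16 added, CDKN1C had the largest drop among called genes whose arrays did not overlap, 10.5-fold (-3.39, SE 0.12, adjusted p = 7.2e-13), and its difference from non-treated cells was 0.23 (95% interval -0.03 to 0.49). RRAD, a small GTPase that inhibits calcium channels, had signals of 181, 182 and 212 with dexamethasone against 17.1, 1.44 and 8.25 with mifepristone and 10.4, 9.58 and 4.06 without treatment. RRAD was 8.59-fold lower (adjusted p = 6.3e-10) and differed from non-treated cells by 0.02 (95% interval -0.36 to 0.39). DNAJC15, a mitochondrial co-chaperone, fell from 245, 197 and 180 to 1.07, 8.27 and 9.37 (adjusted p = 1.6e-09), a signal as low as in non-treated cells (0.979, 11.8 and 0.971). The cadherin CDH16 fell from 78.7, 68.3 and 59.3 to 3.12, 6.39 and 0.892 (adjusted p = 1.4e-05). At signals this low the added 16 holds the fold change down, so the drops of RRAD, DNAJC15 and CDH16 are understated. It also holds down their differences from non-treated cells, so whether RRAD and DNAJC15 returned fully to that level cannot be told. With 1 added in place of 16 the order turned, with drops of 5.14 for DNAJC15, 4.69 for RRAD, 4.17 for CDH16 and 4.03 for CDKN1C on the log2 scale. Of 2 other probe sets of DNAJC15, 1 was lower by 1.00 (adjusted p = 0.00077) and 1 was not called (-0.03). GADD45A, a growth arrest gene, had signals of 492, 455 and 482 with dexamethasone, 148, 166 and 163 with mifepristone and 139, 144 and 165 without treatment, so that 5.40% of its effect was left (adjusted p = 3.8e-10 for the drop). Over the settings the share left of GADD45A ran from -5.45% to 35.1%. RGS2, a regulator of G protein signalling, fell by 2.11 (adjusted p = 4.6e-12), FGD4, an exchange factor for CDC42, by 2.19 (adjusted p = 6.3e-10) and OTULINL by 1.89 (adjusted p = 1e-07). The exception to the direction of the list was EDN1, endothelin 1, which was lower after dexamethasone in these cells (467, 401 and 439 against 941, 1010 and 1100) and higher again with mifepristone (836, 1010 and 934).

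The known targets KLF9, SGK1 and ZBTB16 differed among themselves. KLF9, a hormone-responsive transcription factor, had low signals of 24.8, 29.4 and 25.3 with dexamethasone and 10.5, 3.12 and 6.19 with mifepristone (adjusted p = 0.0043), and its other probe set was not called (-0.11). SGK1, a kinase that keeps sodium channels at the membrane, had 643, 664 and 700 with dexamethasone, 249, 263 and 342 with mifepristone and 315, 321 and 371 without treatment. SGK1 fell by 1.20 (SE 0.10, adjusted p = 6.8e-08), to a mean below the non-treated one that did not pass the test (-0.24, adjusted p = 0.68). ZBTB16 was near background in each group and did not pass (-0.32, adjusted p = 0.77). PER1 was also on the list of fixed targets, but it shares its probe sets with other symbols and was not analysed here.

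**Figure D2:**
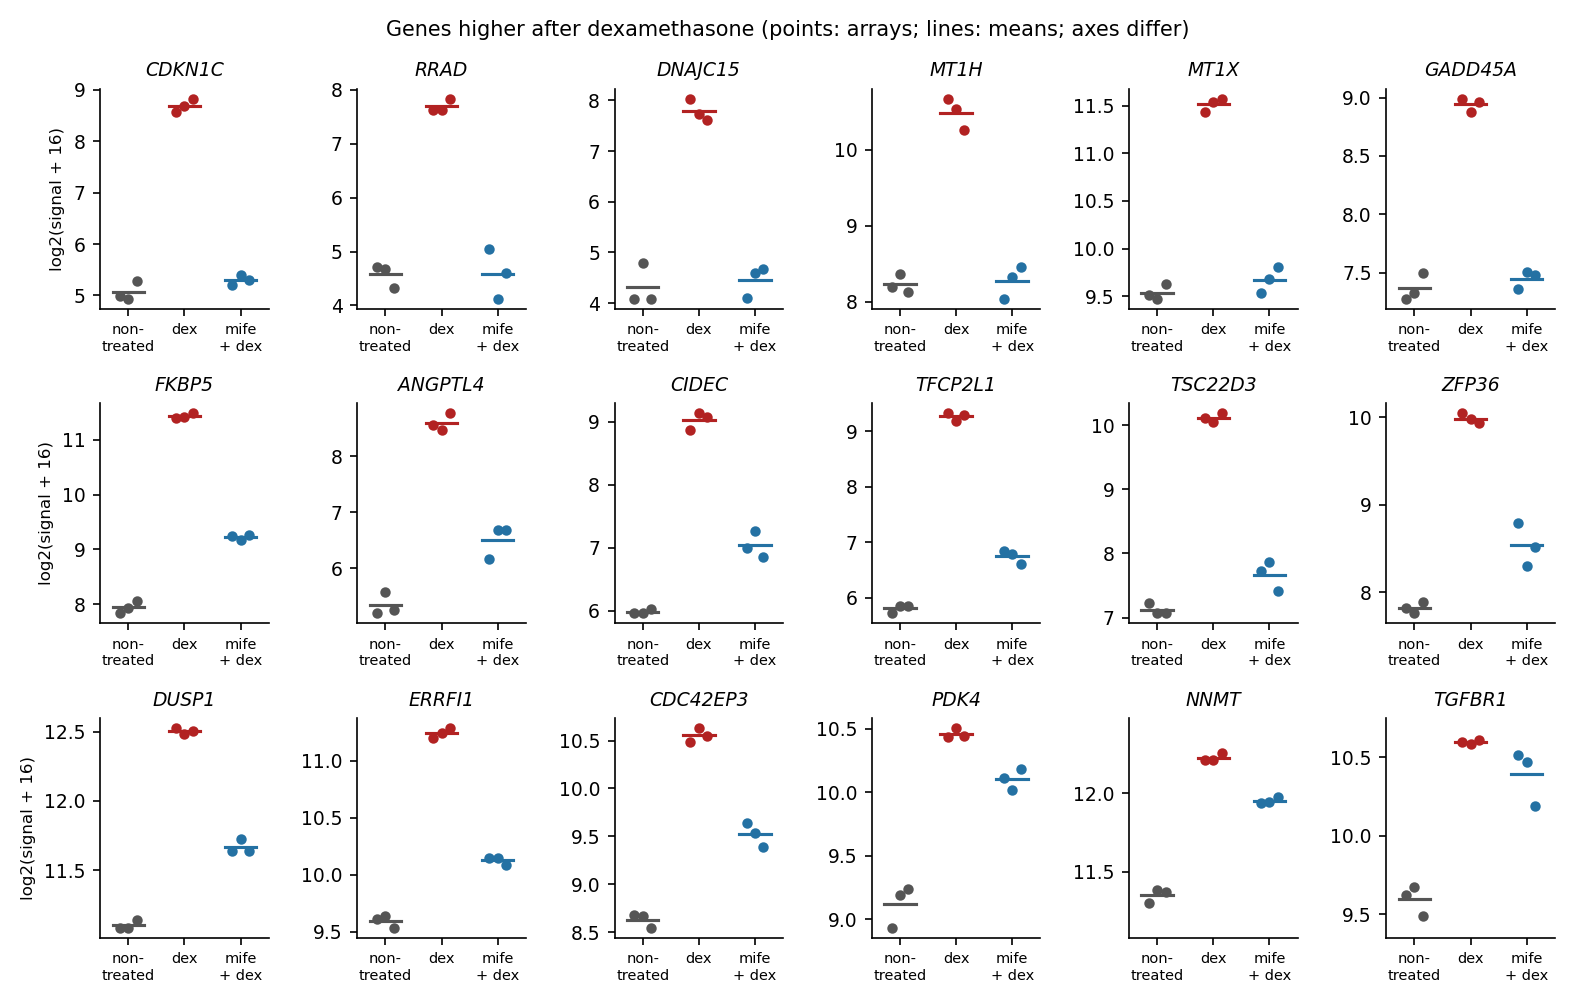
Normalised signal as log2(signal + 16) of 18 genes that were higher after dexamethasone, in non-treated cells, with dexamethasone (dex) and with mifepristone plus dexamethasone (mife + dex); points are arrays, lines are means, and each gene has its own axis. CDKN1C, RRAD, DNAJC15, MT1H, MT1X and GADD45A come first, at or near the non-treated level with mifepristone. FKBP5 and others follow at a level between. PDK4, NNMT and TGFBR1 come last and stay nearer the dexamethasone level after quantile normalization.

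Metallothioneins are small cysteine-rich proteins that bind zinc and copper, and 5 of them were lower with mifepristone. Of 14 genes on the metallothionein and zinc list 11 were tested, with a median of -0.96. With mifepristone 6 were lower, none was higher and 5 did not pass, against 2.76% lower and 2.52% higher of all genes. The 6 were MT1H, MT1E, MT1F, MT1X, MT2A and the zinc importer SLC39A14. The same 6 were higher after dexamethasone, and none of the 11 passed the test against non-treated cells with mifepristone. The 5 metallothionein genes are near-identical copies and their probe sets end in _x_at, a suffix for probes shared between transcripts, so the values of single members are uncertain. MT2A signals were 4660, 4490 and 4340 with dexamethasone, 1200, 1660 and 1560 with mifepristone, and 1140, 1590 and 1640 without treatment. MT1X signals were 2750, 2960 and 3030, then 723, 804 and 879, and 712, 694 and 772 in the same order. MT1H signals were 1610, 1470 and 1210, then 247, 306 and 335, and 277, 313 and 264. In each of these 3 genes the dexamethasone arrays stood apart, and the mifepristone and non-treated arrays overlapped. The drops were 3.06-fold for MT2A (adjusted p = 3.5e-08), 3.59-fold for MT1X (adjusted p = 3.3e-12) and 4.63-fold for MT1H (adjusted p = 1.1e-09). The 95% interval of the difference from non-treated cells ran from -0.24 to 0.29 for MT2A, from -0.02 to 0.30 for MT1X and from -0.23 to 0.33 for MT1H. On the signals as deposited MT2A, MT1X and MT1H stood 0.46, 0.58 and 0.51 above the non-treated level, where the median gene stood 0.37 above it.

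The windows before the starts of these 3 metallothionein genes are shown because they hold runs of the metal response motif, the core bound by the zinc sensor MTF1. The motif was spelled TGCACNC or TGCGCNC and searched on both strands, and the capitals mark its matches. At least 4 matches stood in 130 of 35116 windows (0.370%). By gene, counting any window, they stood in 86 of 12936 tested genes (0.665%) and in 3 of the 6 genes of the zinc list that had a window. None of these 6 held the receptor's motif in this window, which says only that those letters are not in these 250 bases. The windows are chr16:56608334-56608583 for MT2A with 7 matches, chr16:56682220-56682469 for MT1X with 4 and chr16:56669564-56669813 for MT1H with 8, all on the plus strand of GRCh38.p14. The marked matches do not overlap one another.
MT2A: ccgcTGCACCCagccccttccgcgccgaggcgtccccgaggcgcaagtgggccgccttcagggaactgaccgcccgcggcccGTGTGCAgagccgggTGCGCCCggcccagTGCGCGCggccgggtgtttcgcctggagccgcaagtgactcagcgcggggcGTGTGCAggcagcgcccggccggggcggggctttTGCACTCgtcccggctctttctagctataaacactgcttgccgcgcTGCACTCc
MT1X: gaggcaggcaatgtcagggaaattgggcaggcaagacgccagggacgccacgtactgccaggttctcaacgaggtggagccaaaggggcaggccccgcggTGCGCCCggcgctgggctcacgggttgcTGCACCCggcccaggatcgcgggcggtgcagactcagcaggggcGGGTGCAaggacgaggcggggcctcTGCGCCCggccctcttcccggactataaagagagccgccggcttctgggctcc
MT1H: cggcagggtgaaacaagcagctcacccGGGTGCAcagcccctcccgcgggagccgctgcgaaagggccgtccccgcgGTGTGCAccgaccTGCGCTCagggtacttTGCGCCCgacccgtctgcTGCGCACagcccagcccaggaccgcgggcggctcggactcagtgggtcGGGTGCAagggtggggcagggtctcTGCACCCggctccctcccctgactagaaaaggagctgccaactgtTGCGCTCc

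Brakes on inflammatory signalling were lower at 8 members. Of 17 tested genes on a list of anti-inflammatory mediators, 8 were lower with mifepristone, none was higher and 9 did not pass. Over all genes 2.76% were lower and 2.52% higher. The median of the list was -0.39. That median turned to 0.01 on the signals as deposited, where 4 were lower and 3 higher, and to 0.08 with hybridization control scaling. ZFP36, which destabilises cytokine mRNAs, had signals of 1040, 992 and 962 with dexamethasone, 428, 300 and 351 with mifepristone and 210, 201 and 221 without treatment. No group of ZFP36 overlapped, and 33.1% of the effect was left (adjusted p = 4.4e-09 against dexamethasone, 0.00082 against non-treated cells). The difference of ZFP36 from non-treated cells was not called with poly-A control scaling (adjusted p = 0.168) or without a variance trend (0.052). NFKBIA, the inhibitor of NF-kappaB, went from 2380, 2570 and 2900 to 1520, 1440 and 1660 (adjusted p = 4.5e-06), with 1250, 1160 and 1190 in non-treated cells. SOCS1 and SOCS3, inhibitors of cytokine receptor signalling, fell by 1.30 (adjusted p = 0.00075) and 0.75 (adjusted p = 0.00025). Their other tested probe sets were not called, and the median over all of a gene's tested probe sets was -0.29 for SOCS1 and -0.43 for SOCS3. The calls of NFKBIA and SOCS3 were lost on the signals as deposited and with hybridization control scaling.

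Genes of lipid storage and fuel use changed at 11 of 28 tested members. Of these 7 were lower and 4 higher, against 2.76% and 2.52% of all genes, and the median was -0.02. On the signals as deposited 4 were lower and 8 higher, and with poly-A control scaling 6 and 1. ACSL1, which activates fatty acids, went from 1500, 1350 and 1500 to 535, 599 and 467, against 375, 357 and 281 in non-treated cells, and 31.0% of its effect was left (adjusted p = 8.9e-09). PDK4, the kinase that shuts pyruvate dehydrogenase, kept far more. Its signals were 1370, 1440 and 1380 with dexamethasone, 1090, 1020 and 1150 with mifepristone, and 472, 567 and 587 without treatment. PDK4 was 1.28-fold lower than with dexamethasone (-0.36, SE 0.08, adjusted p = 0.0074) and 1.98-fold above the non-treated level (adjusted p = 6.7e-07), which left 73.5% of the effect. The drop was not called without mifepristone replicate 2 (adjusted p = 0.0561) and turned to 0.08 on the signals as deposited, while the excess over non-treated cells held in each of 22 settings. PLIN2, which coats lipid droplets, had 680, 667 and 705 with dexamethasone, 545, 588 and 590 with mifepristone and 342, 368 and 388 without treatment. The drop of PLIN2 did not pass (-0.25, adjusted p = 0.056), and its excess over non-treated cells did (0.63, adjusted p = 6.3e-05). NNMT, a methyltransferase of nicotinamide, had 4720, 4740 and 4880, then 3910, 3920 and 4010, and 2510, 2660 and 2630, so that 68.4% was left. Over the settings the share left of NNMT ran from 37.1% to 111%. The drop of NNMT was small (-0.28, adjusted p = 0.0006), and its excess over non-treated cells (0.60, adjusted p = 6.7e-07) was lost with median centring (0.0771) and poly-A control scaling (0.329). The insulin-like growth factor binding protein IGFBP1 fell by 1.45 (adjusted p = 1.8e-09) and the insulin receptor substrate IRS2 by 0.79 (adjusted p = 4.9e-08).

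TGFBR1, a receptor of TGF-beta, was chosen after its values were seen as a case with no called drop. Its signals were 1530, 1520 and 1550 with dexamethasone, 1450, 1400 and 1150 with mifepristone and 774, 801 and 702 without treatment. The mifepristone arrays lay just under the dexamethasone ones and far above the non-treated ones. The difference from dexamethasone was -0.20 (95% interval -0.35 to -0.05, adjusted p = 0.17), and that from non-treated cells 0.80 (adjusted p = 4.8e-06), which was lost with poly-A control scaling (0.0967). In the same list of TGF-beta and matrix genes, 2 of 25 were higher than with dexamethasone and 4 lower, against 2.52% and 2.76% of all genes. The balance turned on the signals as deposited, with 10 higher and 1 lower, and stood at 2 and 3 with poly-A control scaling. BAMBI, a decoy receptor, rose from a mean of 527 ± 36.8 (SD, n = 3) to 1040, 1040 and 1180 (limma adjusted p = 4.1e-08), and PMEPA1, another inhibitor of the pathway, from 531, 528 and 636 to 1280, 1100 and 994 (adjusted p = 1.7e-06). Both stood at the non-treated level, with differences of 0.03 (95% interval -0.14 to 0.20) for BAMBI and 0.02 (95% interval -0.19 to 0.23) for PMEPA1. CCN2, a matricellular growth factor, fell from 517, 513 and 504 to 164, 162 and 149 (-1.60, adjusted p = 4.3e-09), with 160, 194 and 207 in non-treated cells. THBS1, thrombospondin 1, and the co-receptor TGFBR3 fell by 0.82 (adjusted p = 0.001) and 0.75 (adjusted p = 0.00016).

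Ion transport, small GTPases and the clock changed at part of their members, where 2.76% of all genes were lower and 2.52% higher. Of 15 tested ion transport genes 7 were lower and none higher, but 4 and 4 on the signals as deposited. SCNN1G and SCNN1A, subunits of the epithelial sodium channel, went from a mean of 47.0 ± 12.3 (SD, n = 3) to 8.51, 0.824 and 6.56 (limma adjusted p = 6.3e-05) and from 139, 147 and 163 to 61.7, 75.2 and 64.2 (adjusted p = 0.0013). The water channel AQP3 fell by 0.64 (adjusted p = 0.00041), and NEDD4L, a ligase that removes the sodium channel, by 0.51 (adjusted p = 0.0043), a call lost on the signals as deposited. Of 14 tested genes of small GTPases and RGS proteins 6 were lower and 1 higher. RHOB went from 1620, 1510 and 1640 to 628, 731 and 673, overlapping the 630, 708 and 700 of non-treated cells (adjusted p = 6.6e-10 for the drop), and RHOU fell by 1.10 (adjusted p = 1.2e-07). RND1, the member that was higher, had scattered low signals, and the rise did not pass once dexamethasone array 1 (0.105) or 3 (0.0739), or mifepristone array 1 (0.0688) or 3 (0.0713), was left out. Among 16 clock genes 3 were lower and 2 higher, but 1 and 6 on the signals as deposited. The clock repressor PER2 went from 427, 410 and 510 to 219, 224 and 213 (adjusted p = 2.8e-07), and the activator BMAL1 rose from 77.5, 97.5 and 80.4 to 175, 142 and 164 (adjusted p = 0.00026). NR1D2, a repressor of BMAL1, fell by 0.84 (adjusted p = 0.011), which did not pass once dexamethasone array 1 (0.085), or mifepristone array 1 (0.0724) or 2 (0.0553), was left out.

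**Figure D3:**
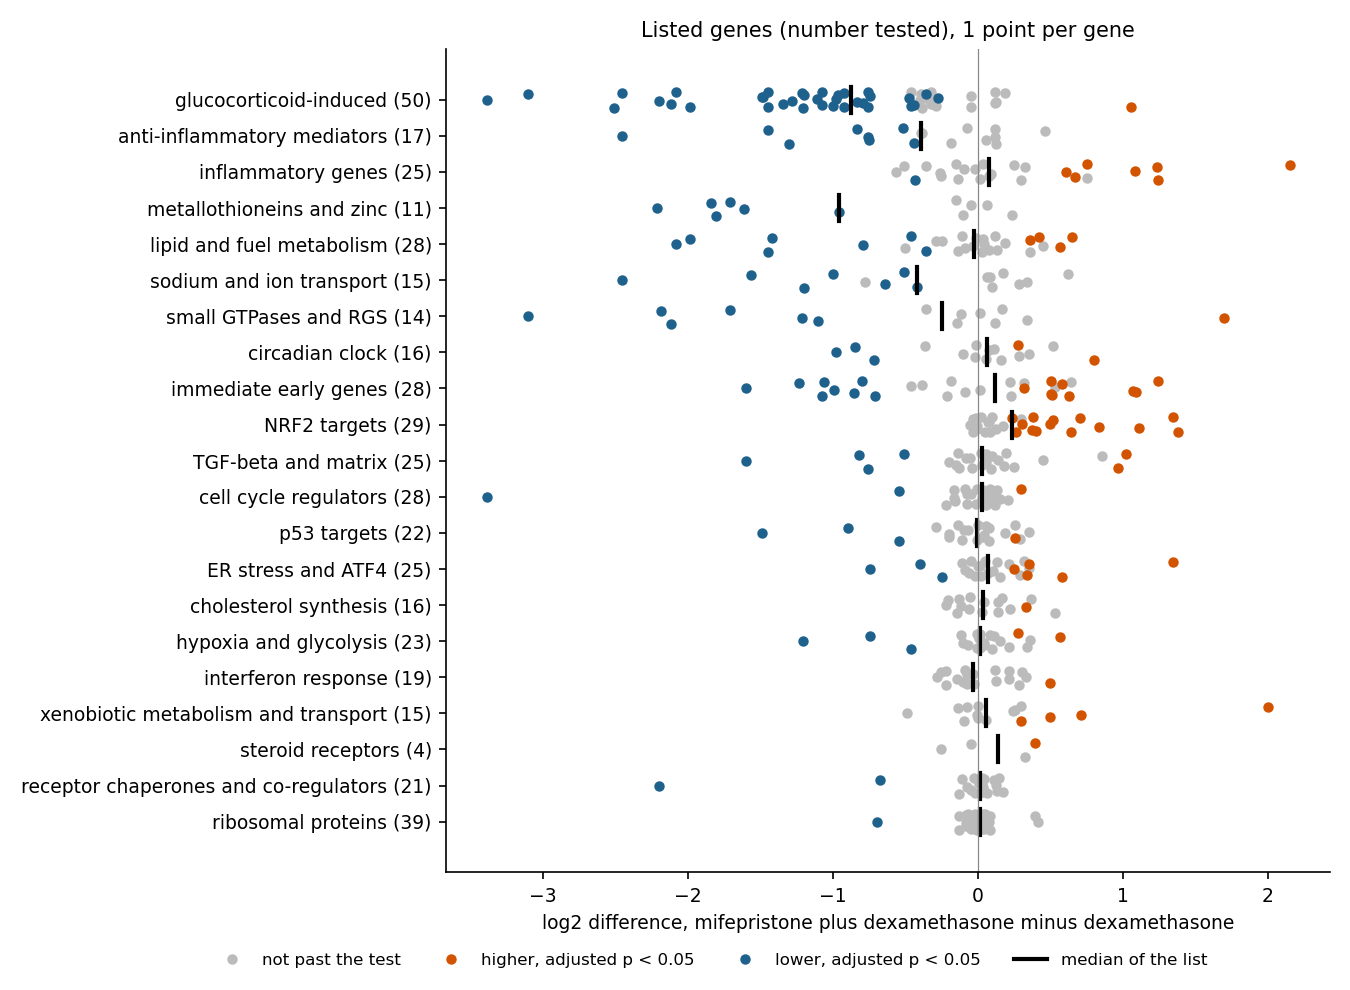
Log2 difference of mifepristone plus dexamethasone minus dexamethasone for the tested genes of each list, 1 point per gene, coloured by whether the gene passed the test (adjusted p under 0.05) and in which direction, with the number tested in brackets and the list's median as a black bar. Glucocorticoid-induced genes and metallothioneins lie mostly below 0, with medians of -0.88 and -0.96, NRF2 targets lie mostly above it, with a median of 0.24, and ribosomal proteins sit near it.

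Genes that were lower after dexamethasone include those with the largest rises. TNFSF15, a cytokine of the TNF family, had the largest rise among called genes whose arrays did not overlap, on the scale with 16 added. The window before its start is shown because it holds the AP-1 motif TGANTCA, searched on both strands, which stood in 2308 of 35116 windows (6.57%). By gene, counting any window, the motif stood in 870 of 12936 tested genes (6.73%) and in 6 of 18 genes of the inflammatory list that had a window. The match is in capitals, 120 bases before the start, in chr9:114792531-114792780 of GRCh38.p14 on the minus strand.
TNFSF15: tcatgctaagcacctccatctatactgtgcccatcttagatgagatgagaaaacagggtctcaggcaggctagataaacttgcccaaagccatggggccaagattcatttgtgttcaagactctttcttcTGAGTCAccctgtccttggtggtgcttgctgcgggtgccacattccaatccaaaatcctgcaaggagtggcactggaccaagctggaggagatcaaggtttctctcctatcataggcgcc
TNFSF15 signals were 29.6, 20.8 and 20.4 with dexamethasone, 188, 157 and 136 with mifepristone, and 203, 200 and 203 without treatment. The mifepristone arrays lay far above the dexamethasone ones and just under the non-treated ones. TNFSF15 was 4.45-fold higher than with dexamethasone (2.15, SE 0.14, adjusted p = 3.3e-09), and its difference from non-treated cells was -0.32 (95% interval -0.61 to -0.02, adjusted p = 0.72). Its other probe set rose by 0.54 and was not called.

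CYP24A1, the enzyme that breaks down vitamin D, had signals of 621, 502 and 643 with dexamethasone, 2590, 2430 and 2190 with mifepristone and 2640, 2760 and 2860 without treatment. It rose 4.01-fold (2.00, SE 0.10, adjusted p = 4.6e-11), to a level slightly under the non-treated one. ST8SIA4, a polysialyltransferase, rose from 14.7, 13.9 and 16.8 to 105, 91.8 and 103 (adjusted p = 1.9e-08), and TM4SF20, a tetraspan membrane protein, from 166, 211 and 168 to 648, 590 and 608 (adjusted p = 9.9e-09). In non-treated cells ST8SIA4 stood at 117, 112 and 113, and TM4SF20 at 642, 691 and 727. The other genes with the largest rises were RASSF10, IFFO2, CNNM4, MYOCD and IER5L, up by 1.19 to 1.35 on the log2 scale, and each was lower after dexamethasone than in non-treated cells. KCNIP2-AS1, an antisense transcript whose signal on an array may include overlapping RNA, rose from 7.90, 8.51 and 5.27 to 50.4, 49.4 and 31.7 (adjusted p = 0.0021), where its change after dexamethasone did not pass (13.4, 16.7 and 16.7 in non-treated cells, adjusted p = 0.45).

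Inflammatory genes rose in a minority. Of 25 tested members of the inflammatory list 7 were higher with mifepristone, 1 was lower and 17 did not pass. Over all genes 2.52% were higher and 2.76% lower, and the median of the list was 0.08. In dexamethasone against non-treated cells 9 were lower and 1 higher, where 3.60% and 3.20% of all genes were. PTGS2, the inducible cyclooxygenase, rose from 233, 230 and 259 to 687, 526 and 566 (1.24, SE 0.10, adjusted p = 7.9e-08), overlapping the 641, 594 and 687 of non-treated cells. A second probe set of PTGS2 rose by 0.95 (adjusted p = 0.00022). PLAUR, the urokinase receptor, rose by 0.61 (adjusted p = 0.0043), and the chemokine CXCL3 by 0.75 (adjusted p = 0.01), the latter not called without mifepristone replicate 1 (0.0811). PTGES, which makes prostaglandin E2, was the member that fell (-0.43, adjusted p = 0.0012). PTGES stood at 0.019 on the signals as deposited and at 0.088 with hybridization control scaling, and was not called with poly-A control scaling (0.0698). CXCL1, a neutrophil chemokine, was not called, with 38.5, 32.8 and 40.6 against 37.0, 32.7 and 32.3 (0.09, adjusted p = 0.89), and with 59.5, 70.0 and 79.5 in non-treated cells. Its difference from non-treated cells did not pass either (-0.68, adjusted p = 0.089). CXCL8 was near background in each group and did not pass (0.33, adjusted p = 0.61).

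IL11, a cytokine induced by TGF-beta, came back in part. Its signals were 1.46, 9.65 and 5.53 with dexamethasone, 32.2, 32.6 and 23.3 with mifepristone and 103, 84.3 and 78.2 without treatment. The groups did not overlap. IL11 was 1.09 higher than with dexamethasone (SE 0.22, adjusted p = 0.0044) and 1.20 lower than in non-treated cells (adjusted p = 0.019). The call against non-treated cells was lost without any 1 non-treated array (0.134, 0.0892 and 0.064) or any 1 mifepristone array (0.0742, 0.0597 and 0.139), and the other probe set of IL11 was not called.

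Early response genes went both ways. Of 28 tested members 9 were higher with mifepristone and 8 lower, against 2.52% and 2.76% of all genes. The balance depends on the scaling, with 14 higher and 5 lower on the signals as deposited, and 3 higher and 8 lower with poly-A control scaling. NR4A2, an orphan nuclear receptor, rose from 18.6, 13.3 and 19.3 to 58.0, 54.6 and 50.4, with 104, 101 and 99.3 in non-treated cells, so that 40.4% of the effect was left (adjusted p = 1.9e-06 against dexamethasone, 0.0038 against non-treated cells). PLK2, a polo-like kinase, rose from 330, 319 and 327 to 652, 706 and 628, with 1000, 1020 and 1110 in non-treated cells, and 39.5% was left (adjusted p = 7.1e-09 and 3.8e-05). The arrays of NR4A2 and PLK2 did not overlap between any 2 groups, but on the signals as deposited neither passed against non-treated cells (adjusted p = 0.19 and 0.375), nor with hybridization control scaling (0.178 and 0.358). The stress genes IER3 and IER2 rose by 1.24 (adjusted p = 6.6e-10) and 1.07 (adjusted p = 4.9e-09), and JUND, a subunit of AP-1, by 0.51 (adjusted p = 0.00019). Those that fell were led by CCN2. KLF4 went from 613, 518 and 560 to 225, 234 and 231, with 213, 231 and 258 in non-treated cells (adjusted p = 1.1e-08). FOS, JUNB and FOSL2, further AP-1 subunits that were higher after dexamethasone here, fell by 1.06 (adjusted p = 0.00049), 0.71 (adjusted p = 0.00067) and 0.85 (adjusted p = 6.1e-08). The survival factor MCL1 fell by 0.99 (adjusted p = 1.6e-08), KLF6 by 1.07 (adjusted p = 8.2e-08) and CCN1 by 0.80 (adjusted p = 5.1e-05).

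NRF2 regulates the antioxidant response and is constantly active in A549 cells. Of 29 tested NRF2 targets 14 were higher with mifepristone, none was lower and 15 did not pass, with a median of 0.24 against 0.02 over all genes. The shares over all genes were 2.52% higher and 2.76% lower. The count of higher targets was 8 with median centring, 10 with trimmed-mean scaling and 6 with poly-A control scaling, all with none lower. Of all 39778 probe sets 441, 639 and 237 were higher on these scalings, in the same order. After dexamethasone 11 of the 29 were lower than in non-treated cells and none higher, and with mifepristone none passed the test against non-treated cells, or 6, all higher, on the signals as deposited. HMOX1, heme oxygenase 1, had signals of 831, 666 and 794 with dexamethasone, 1650, 2260 and 2180 with mifepristone and 2230, 2040 and 2460 without treatment (1.38, SE 0.12, adjusted p = 2.4e-07). SLC7A11, the cystine importer, had 735, 633 and 625, then 1840, 1780 and 1540, and 2020, 2200 and 1940 (1.35, SE 0.08, adjusted p = 6.9e-10). For HMOX1 the mifepristone and non-treated arrays overlapped, and for SLC7A11 they did not. GCLC, the catalytic subunit of the enzyme that starts glutathione synthesis, rose from 1050, 1020 and 1000 to 1870, 1780 and 1880, with 1790, 1690 and 1710 in non-treated cells (adjusted p = 1.1e-08). Its partner GCLM rose from 1890, 1820 and 1690 to 2680, 2870 and 2910 (adjusted p = 1.8e-07). SRXN1, which repairs peroxiredoxins, rose by 0.71 (adjusted p = 3.6e-07) and OSGIN1 by 1.12 (adjusted p = 0.00052). TXNRD1, thioredoxin reductase, has a high signal, and its rise of 0.40 (adjusted p = 0.00011) was not called with median centring (0.469) or trimmed-mean scaling (0.198).

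**Figure D4:**
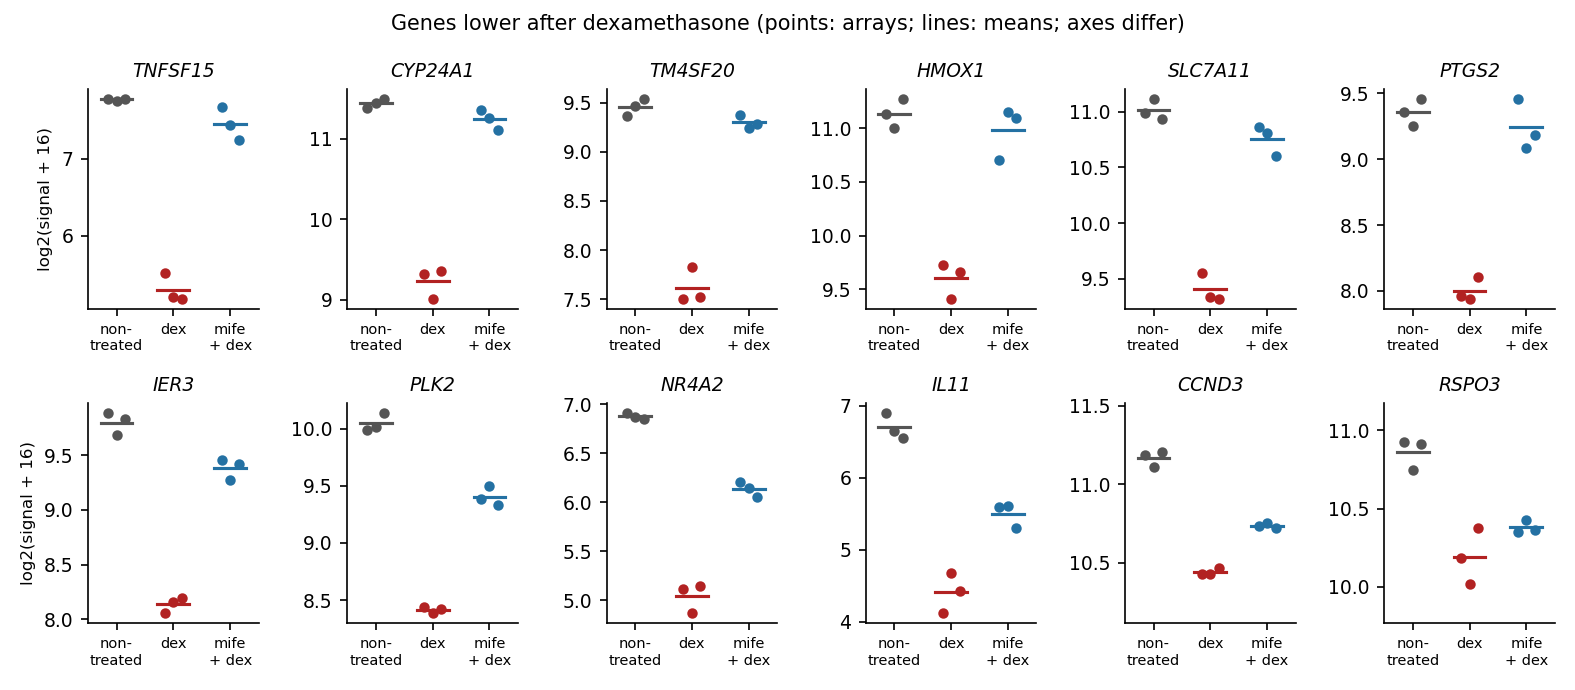
Normalised signal as log2(signal + 16) of 12 genes that were lower after dexamethasone, in non-treated cells, with dexamethasone (dex) and with mifepristone plus dexamethasone (mife + dex); points are arrays, lines are means, and each gene has its own axis. In TNFSF15, CYP24A1, TM4SF20, HMOX1, SLC7A11 and PTGS2 the mifepristone arrays lie near the non-treated ones, and in NR4A2, PLK2, IL11 and CCND3 they lie between the other groups. In RSPO3 they overlap the dexamethasone arrays and lie below the non-treated ones.

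Cell cycle and p53 targets changed at few members. Of 28 cell cycle regulators 2 were lower, CDKN1C and CDKN1A (p21), and 1 was higher, CCND3 (cyclin D3), against 2.76% and 2.52% of all genes. These counts were 1 lower and 18 higher on the signals as deposited, and 2 lower and none higher with poly-A control scaling. CDKN1A went from 648, 699 and 678 to 483, 450 and 442, with 424, 478 and 424 in non-treated cells (adjusted p = 0.00016). CCND3 had 1360, 1360 and 1400 with dexamethasone, 1690, 1710 and 1670 with mifepristone and 2320, 2200 and 2350 without treatment, so 59.6% of its fall was left (adjusted p = 0.00083 against dexamethasone, 0.00011 against non-treated cells). The CCND3 call against dexamethasone was lost with median centring (0.244), poly-A control scaling (0.719) and no variance trend (0.0589), and the call against non-treated cells on the signals as deposited (0.923, with 2.67% of the fall left) and with no variance trend (0.0663). Of 22 p53 targets 3 were lower, GADD45A, CDKN1A and TP53I3, and 1 was higher, with 2 lower and 9 higher on the signals as deposited. TP53I3, an oxidoreductase, went from 2090, 1950 and 1900 to 1000, 1070 and 1100, overlapping the 1050, 952 and 1080 of non-treated cells (adjusted p = 2.7e-09).

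Some drops under 1 on the log2 scale rest on the scaling. On the signals as deposited, where the median gene was 0.38 higher, AQP3, CCN1, CDKN1A, DNAJB1, FOSL2, IRS2, JUNB, NR1D2, TGFBR3 and THBS1 kept the direction and were not called. Those of DUSP1, MCL1, SLC39A14 and TP53I3 were called in each setting that had a test, with adjusted p up to 0.0168, 0.0288, 0.0306 and 0.0488.

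The receptor itself was measured by several probe sets. NR3C1 had signals of 1140, 936 and 1070 with dexamethasone, 1390, 1490 and 1270 with mifepristone and 1350, 1330 and 1290 without treatment. The dexamethasone arrays were the lowest, and the other groups overlapped. NR3C1 was 1.32-fold higher with mifepristone (0.40, SE 0.08, adjusted p = 0.0029), and 2 further probe sets were higher by 0.51 (adjusted p = 0.00075) and 0.56 (adjusted p = 0.00024). The call of the first was lost with poly-A control scaling (0.371). Other steroid receptors gave little to compare. PGRMC2, a membrane progesterone receptor component, did not pass (0.33, adjusted p = 0.31), ESR1 was near background, and the progesterone receptor gene PGR stayed below the filter on low values. Of 21 chaperones and co-regulators of the receptor 2 were lower and none higher, against 2.76% and 2.52% of all genes. The 2 were FKBP5 and the co-chaperone DNAJB1 (-0.68, adjusted p = 4.9e-07). HSP90AA1 differed by 0.01 (adjusted p = 0.97) and FKBP4, the immunophilin that competes with FKBP5, by 0.06 (adjusted p = 0.88). Mifepristone also binds the xenobiotic receptor in liver cells. Of 15 tested genes of xenobiotic metabolism and transport 4 were higher and none lower, against 2.52% and 2.76% of all genes. Among the 4 were CYP24A1, the transporter ABCC2 (0.50, adjusted p = 9.1e-05) and AHR, the dioxin receptor (0.71, adjusted p = 0.00026). After dexamethasone alone 4 of the 15 were lower than in non-treated cells and none higher. With mifepristone none of the 15 passed against non-treated cells. A part of the xenobiotic receptor in these rises was not tested. CYP3A4, CYP3A5, CYP2B6 and ABCB1 had mean signals near background and did not pass, with adjusted p from 0.94 upward.

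Against non-treated cells, 28 genes were higher and 12 lower with mifepristone and dexamethasone, which is 0.244% of the genes tested (0.166% of probe sets). The most raised were FKBP5, ANGPTL4, CIDEC, PRR15L, PDK4, TFCP2L1, CDC42EP3 and EDN3, each of which was higher after dexamethasone alone. Both comparisons use the same non-treated arrays, so like signs at a gene are not independent. PRR15L had 90.6, 115 and 110 with dexamethasone, 41.4, 31.8 and 50.3 with mifepristone and 10.6, 9.09 and 15.2 without treatment, and 48.8% of its effect was left. EDN3, endothelin 3, had 99.6, 108 and 104, then 30.1, 39.7 and 34.3, and a non-treated mean of 11.6 ± 3.04 (SD, n = 3, limma adjusted p = 0.0081). Its excess over non-treated cells was not called without non-treated replicate 2 (0.0545) or 3 (0.064) or mifepristone replicate 2 (0.071). The most lowered were IL11, LRRC75B, NR4A2, PLK2, ZC3HAV1, STAMBPL1, RSPO3 and JUND. STAMBPL1, a deubiquitinase, had 285, 321 and 327 with dexamethasone, 492, 461 and 478 with mifepristone and 655, 695 and 660 without treatment. RSPO3, an activator of WNT signalling, was not called against dexamethasone (1290, 1360 and 1300 against 1150, 1020 and 1310, adjusted p = 0.26), and was lower than the 1930, 1700 and 1910 of non-treated cells (adjusted p = 0.0067). LRRC75B was not called against dexamethasone either (adjusted p = 0.3). The calls of LRRC75B and JUND against non-treated cells were lost without non-treated replicate 2 (0.186 and 0.0761) or 3 (0.135 and 0.0736) and without mifepristone replicate 2 (0.0948 and 0.0521) or 3 (0.0549 and 0.07), and that of LRRC75B also without mifepristone replicate 1 (0.211). The number of calls rests on the scaling, since 66 probe sets passed here, 5782 on the signals as deposited, and 38 with poly-A control scaling. STAMBPL1, RSPO3 and JUND did not pass against non-treated cells on the signals as deposited (adjusted p = 0.901, 0.858 and 0.967), and RSPO3 was also lost without non-treated replicate 1 (0.056) or 3 (0.064) or mifepristone replicate 1 (0.0572).

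Some genes passed with mifepristone where their change after dexamethasone alone had not, and only part of them are named here. LXN, latexin, an inhibitor of carboxypeptidases, had signals of 845, 831 and 957 with dexamethasone, 1220, 1140 and 1250 with mifepristone and 850, 876 and 926 without treatment. The mifepristone arrays lay above all the others. LXN was 1.37-fold higher than with dexamethasone (0.45, SE 0.07, adjusted p = 0.00026) and 1.35-fold higher than in non-treated cells (0.44, adjusted p = 0.0044). ZC3HAV1, an antiviral protein that binds CG-rich RNA, had 647, 527 and 699 with dexamethasone, 350, 423 and 338 with mifepristone and 565, 568 and 610 without treatment. Here the mifepristone arrays lay below all the others, and ZC3HAV1 was lower by 0.73 (SE 0.11, adjusted p = 0.00017) and by 0.63 (adjusted p = 0.0086). A second ZC3HAV1 probe set differed alike, by -0.74 (adjusted p = 7.5e-06) and -0.59 (adjusted p = 0.0017), and another, with low signals, was not called (0.00). HNRNPA0, an RNA-binding protein named after its values were seen, had 1810, 2030 and 2050, then 1550, 1540 and 1340, and 1860, 1980 and 2110 (adjusted p = 0.0051 and 0.042).

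The calls of these 3 genes depend on the scaling. Against dexamethasone, LXN was not called with poly-A control scaling (0.39, adjusted p = 0.11), and against non-treated cells it was not called there (0.422), with median centring (0.279) or with no variance trend (0.164). ZC3HAV1 stood at -0.27 on the signals as deposited and at -0.21 with hybridization control scaling (adjusted p = 0.235 and 0.346). HNRNPA0 stood at 0.008 on the signals as deposited, where the median gene was 0.38 higher. Against non-treated cells, ZC3HAV1 was not called without non-treated replicate 3 (0.0746) or mifepristone replicate 1 (0.0794) or 3 (0.0691), and HNRNPA0 was called in 8 of 22 settings.

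Another 14 genes that passed against dexamethasone had no called change and a difference under 0.3 between dexamethasone and non-treated cells. With LXN and ZC3HAV1 they are the 8 most raised and 8 most lowered of such genes without overlap of arrays. The total of such genes was not counted here. Among the 14, the raised ones were CHD7, NMRAL2P, CCNG2, DUSP6, RNF169, EID2B and CPT1A, and the lowered ones PDLIM4, RPL7, PHKG2, RHCG, BCAS4, TGFB1I1 and LINC01588. Their differences were small, from 0.42 to 0.56 up and from 0.52 to 0.83 down, and none passed against non-treated cells. Counting LXN and ZC3HAV1, 14 of the 16 genes chosen by this rule lost the call when 1 array was left out, and 12 with poly-A control scaling. Each of the 6 arrays compared ended at least 1 of these calls, with adjusted p up to 0.27 (BCAS4 without dexamethasone replicate 2). RPL7 was represented by a probe set with mean signals of 12.5 to 33.5, while its brighter probe set was not called (0.03, adjusted p = 0.853).

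**Figure D5:**
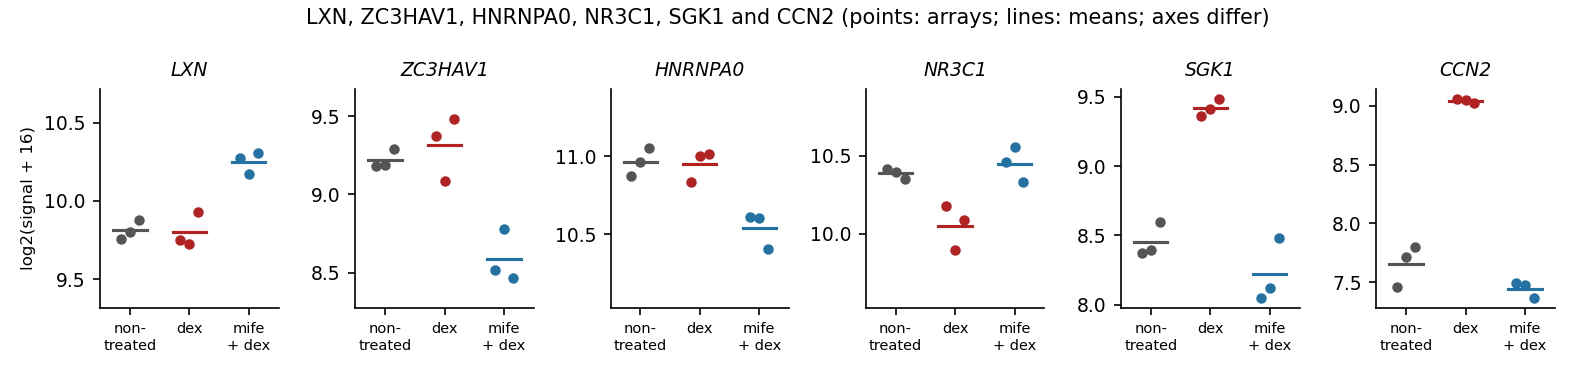
Normalised signal as log2(signal + 16) of 6 genes in non-treated cells, with dexamethasone (dex) and with mifepristone plus dexamethasone (mife + dex); points are arrays, lines are means, and each gene has its own axis. The mifepristone arrays lie above both other groups in LXN and below both in ZC3HAV1 and HNRNPA0, while NR3C1, SGK1 and CCN2 lie at or slightly beyond the non-treated level.

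Markers were those of an epithelial line. Of the epithelial markers of A549 cells, 6 of 6 were tested, and KRT18, KRT8 and KRT7 had mean signals from 4850 to 9530 in each group. Markers of leukocytes (3 of 8 tested), fibroblasts (7 of 8) and endothelium (1 of 4) were low, and none of those tested passed against dexamethasone. Surfactant genes and NKX2-1, markers of alveolar cells, were near background, and the lung transcription factors FOXA1 and FOXA2 rose from 47.4, 42.7 and 36.5 to 81.9, 111 and 94.0 (adjusted p = 0.00032) and from 104, 99.9 and 102 to 169, 221 and 231 (adjusted p = 0.00015). Of the 7 tested alveolar and lung genes 2 were lower after dexamethasone than in non-treated cells and none higher, where 3.60% and 3.20% of all genes were. EPCAM rose by 0.56 (adjusted p = 0.0032). With mifepristone none of these 7 genes, and none of the 6 epithelial markers, passed against non-treated cells, where 0.244% of all genes did. KRT7, KRT8 and KRT18 were lower by 0.35, 0.30 and 0.14, calls that single arrays decided. KRT18 was not called without any 1 of the 9 arrays (adjusted p from 0.0519 to 0.196), KRT8 without dexamethasone replicate 3 (0.0552) or mifepristone replicate 3 (0.0752), and KRT7 without dexamethasone replicate 1 (0.0575) or 3 (0.117) or mifepristone replicate 2 (0.0773) or 3 (0.0976).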

How the data were processed

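Affymetrix signals of 15 arrays (5 groups of 3) were used as deposited intensity values on a linear scale, 1 per probe set, which MAS5 produced for the authors (named in the submitters' processing notes). Neither its version nor its scaling target is given in the sources used here. Of 54675 probe sets 62 controls were left out. Signals were quantile normalized over 15 arrays and taken as log2(signal + 16), which understates changes of low signals. Probe sets above the 40th percentile of their array on at least 3 arrays were tested (39778, 72.8%). A linear model over 15 arrays with limma 3.58.1 in R 4.3.3, moderated with a variance trend (10 residual and 9.36 prior degrees of freedom), gave p-values, adjusted by Benjamini-Hochberg over all probe sets tested. The number of arrays limits the precision. The fit was tested on simulated data.

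Genes were named from a table of the platform's probe sets, with 41097 carrying 1 symbol, 1801 several and 11777 none. The probe set carrying the symbol alone, not ending in _x_at where possible and with the highest mean, stood for a gene. Named were the 15 most raised and most lowered called genes with no overlap of arrays, up to 6 of each list by p, 8 each way with a dexamethasone difference under 0.3, 8 each way against non-treated cells, and fixed targets. Some of these appear as counts only, and TGFBR1, NNMT, PLIN2, HNRNPA0, CCND3 and CXCL1 were named for their values. The members and lists were chosen with earlier results of these data known. Sequences are RefSeq windows of 250 bases, matched by symbol for 12936 of 16367 genes. Same-numbered arrays did not deviate together (correlations from -0.0669 to 0.0627).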

Additional observations from a re-analysis of the deposited data

Results flagged for a closer look

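The poly-A labelling controls, which are not genes of the cells and enter here only as an alternative scaling, were 1.43-fold brighter on the mifepristone arrays than on the dexamethasone arrays, and were picked out because their levels did not overlap between the groups. Arrays with polyamides reached 77.1 in these controls, so the brightness was not confined to the mifepristone arrays. Groups of 3 arrays are too small for the test of single outlying samples.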

How the results depend on the processing

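Scaling moved the counts most. Probe sets called between mifepristone plus dexamethasone and dexamethasone alone numbered 1408, but 8138 on the signals as deposited (7906 higher, 232 lower), 12834 with hybridization control scaling (12612 higher, 222 lower) and 771 with poly-A control scaling (237 higher), a setting added after seeing the data. Leaving out 1 array gave from 1002 to 1350 (398 to 595 higher, 591 to 761 lower), with the lowest count without mifepristone replicate 1. For dexamethasone against non-treated cells, 1932 became 814 as deposited and 767 with hybridization control scaling, and 1431 to 1967 without 1 array. For mifepristone plus dexamethasone against non-treated cells, 66 became 5782 as deposited, 2149 with hybridization control scaling, 43 with median centring, 38 with poly-A control scaling and 26 without a variance trend, and 42 to 66 without 1 array. The replicate number as a block gave 1433, 1922 and 75 in these 3 comparisons, and the numbers do not pair the samples. The cause of these shifts was not tested.

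Of 124 named genes called against dexamethasone, 75 were called in each setting that had a test, 42 lost the call in at least 1 setting with the same direction throughout, and 7 changed direction. As deposited, the differences were 0.008 for HNRNPA0, 0.08 for PDK4, 0.022 for NNMT, 0.023 for KRT18 and 0.019 for PTGES. With hybridization control scaling they were 0.079 for HNRNPA0, 0.15 for PDK4, 0.092 for NNMT, 0.094 for KRT18, 0.088 for PTGES and 0.014 for NEDD4L. RPL7 stood at 0.029 by its brightest probe set and by the median of its probe sets.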

Other observations

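Of 25 tested genes of the ER stress and ATF4 list, 5 were higher with mifepristone than with dexamethasone alone and 3 were lower. Over all genes 2.52% were higher and 2.76% lower. On the signals as deposited 15 of the list were higher and 0 lower, where 7906 and 232 of 39778 probe sets were. With poly-A control scaling 1 was higher and 1 lower, where 237 and 534 probe sets were. ATF4, the regulator of the amino acid response, rose from 1990, 2290 and 2230 to 2840, 2550 and 2850 (0.34, limma adjusted p = 0.0051; 0.766 with poly-A control scaling), and DDIT4, an inhibitor of mTOR, fell from 3080, 2820 and 2970 to 1770, 1710 and 1800 (-0.74, adjusted p = 7.2e-09; 0.0648 on the signals as deposited). Of 23 hypoxia and glycolysis genes 2 were higher and 3 lower, or 7 and 1 on the signals as deposited, led by NDRG1, which went from 1290, 1300 and 1410 to 623, 572 and 517 (-1.20, adjusted p = 1.2e-07), and by PFKFB3, an activator of glycolysis, which rose by 0.56 (adjusted p = 0.00065). In the interferon list 1 of 19 passed, OAS1, up by 0.50 (adjusted p = 0.00022), and in cholesterol synthesis 1 of 16, INSIG1, up by 0.33 (adjusted p = 0.0061), both shares near the 5.27% of all genes called in either direction. INSIG1 was not called without mifepristone replicate 2 (0.0521), with poly-A control scaling (0.481), with median centring (0.0665) or with no variance trend (0.0546). After dexamethasone alone 3 genes of the ER stress and ATF4 list were higher than in non-treated cells and 5 lower. In the hypoxia and glycolysis list 3 were higher and 3 lower, where 3.20% and 3.60% of all genes were. With mifepristone no tested gene of either list passed against non-treated cells.

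Ribosomal protein genes, 39 tested, had a median of 0.01 after quantile normalization, of -0.29 with median centring and of 0.19 on the signals as deposited, where the median gene stood at 0.38.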
